A study of Mus musculus with 4 samples.

Results

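The genes of the mevalonate arm of cholesterol synthesis were followed in liver RNA from mice with diet-induced obesity (DIO) that were given GALP through the nose. GALP is galanin-like peptide, a neuropeptide of the hypothalamus. They were Acat2, Hmgcs1, Mvk, Pmvk, Mvd, Idi1, Fdps, Ggps1 and Fdft1, taken in the order in which their enzymes act between acetyl-CoA and squalene. Every probe that the array design names for these 9 genes was used, which gave 9 of 26582 gene names and 18 of 41174 probes, and 15 of the 18 had signal, meaning that at least 1 channel was well above background on every array. In both GALP pools 1 probe each of Mvd, Idi1 and Fdps passed the call rule of the study's methods and was lower than in the control, by a mean of 50%, 40.3% and 68.4% over 2 pools. The other, brighter probes of Idi1 and Fdps were lower by 21.0% and 18.2% and were not called. The calls of Idi1 and Fdps were lost when the background correction and the dye normalization were both replaced, and no member probe was called higher.

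All mice were male C57BL/6J mice, bought at 8 weeks of age and kept on a diet rich in fat for 14 weeks, to a weight of at least 40 g, and the diet went on during the treatment. The GALP group received 1 nmol of porcine GALP (1-60) in saline with 5% α-cyclodextrin, once a day into the nose for 11 days. The control group received saline, and each dose had a volume of 2 µL. Liver RNA of the 8 GALP-treated mice was pooled by response, 4 mice with greater weight loss in 1 pool and 4 with less weight loss in another, and RNA of the 8 saline-treated mice was pooled as the control. A GALP pool and the control shared 2 dual-colour Agilent arrays, the second with Cy3 and Cy5 swapped, so that 4 arrays on 1 slide held 2 GALP pools. The 2 arrays of a pool carry the same extracts and were averaged, and each mean ± SD is over n = 2 pools. The control is 1 sample, and its own spread is in no SD and in no test.

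The mevalonate pathway builds isoprenoid units from acetyl-CoA. Acat2 joins acetyl groups, Hmgcs1 makes HMG-CoA, and after its reduction to mevalonate the kinases Mvk and Pmvk add phosphates, Mvd removes a carboxyl group to give isopentenyl diphosphate, and Idi1 isomerises it. Fdps condenses these units to farnesyl diphosphate, from which Fdft1 makes squalene for cholesterol while Ggps1 makes geranylgeranyl diphosphate for protein prenylation. Liver is a main site of cholesterol synthesis, and transcription of most of these genes is driven by SREBP-2 when sterols are scarce. The enzyme that reduces HMG-CoA was not analysed here.

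Probes of a gene are numbered by their mean signal. Fdps and Idi1 have 2 probes each, and in both genes probe 2 was called and probe 1 was not. The sequences of both Fdps probes and of the called Idi1 probe show what the called and the uncalled probes read. They are the 60 bases of each probe as the array files give them, 5′ to 3′, with no part marked. Positions are on the mouse build mm9 (NCBI37). Fdps probe 1 spans 141 bases of the genome (chr3:88898812-88898952, minus strand), so its ends lie on different exons, and it carries RefSeq accessions of Fdps. Fdps probe 2 is an unspliced stretch of 60 bases further 5′ in the gene (chr3:88903026-88903085, minus strand). It is annotated to an Ensembl transcript and has no RefSeq accession. Idi1 probe 2 spans 405 bases of the genome (chr13:8886802-8887206, plus strand), and it carries a RefSeq accession of Idi1. The files do not say which exon, intron or UTR a probe lies in.
Fdps probe 1: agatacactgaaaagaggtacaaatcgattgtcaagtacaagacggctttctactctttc
Fdps probe 2: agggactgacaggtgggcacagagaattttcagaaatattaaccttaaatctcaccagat
Idi1 probe 2: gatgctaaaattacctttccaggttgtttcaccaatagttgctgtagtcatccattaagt

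The promoters of Hmgcs1, Mvd and Idi1 are shown because these genes gave the 3 lowest mean ratios among the member genes that the promoter table holds. The sequences are those of RefSeq on GRCm38.p6, a later build than that of the probe positions. Each line holds the 250 bases before the start site on the gene's strand, chr13:119690101-119690350 for Hmgcs1, chr8:122443423-122443672 for Mvd (minus strand) and chr13:8885356-8885605 for Idi1. Capitals mark TCACNCCAC, a form of the sterol regulatory element, and CCAAT, the core of the NF-Y site, each searched on both strands (CCAAT on the minus strand reads ATTGG). These motifs did not overlap each other.
Hmgcs1: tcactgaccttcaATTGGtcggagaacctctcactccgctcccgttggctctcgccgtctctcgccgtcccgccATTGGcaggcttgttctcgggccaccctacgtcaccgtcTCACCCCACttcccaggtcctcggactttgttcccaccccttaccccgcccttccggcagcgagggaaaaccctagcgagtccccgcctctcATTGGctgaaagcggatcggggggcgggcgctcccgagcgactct
Mvd: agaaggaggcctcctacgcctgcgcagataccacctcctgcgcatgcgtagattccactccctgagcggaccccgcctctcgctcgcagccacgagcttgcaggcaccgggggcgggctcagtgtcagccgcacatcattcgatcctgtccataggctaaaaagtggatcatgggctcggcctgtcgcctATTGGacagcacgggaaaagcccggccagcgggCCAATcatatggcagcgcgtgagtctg
Idi1: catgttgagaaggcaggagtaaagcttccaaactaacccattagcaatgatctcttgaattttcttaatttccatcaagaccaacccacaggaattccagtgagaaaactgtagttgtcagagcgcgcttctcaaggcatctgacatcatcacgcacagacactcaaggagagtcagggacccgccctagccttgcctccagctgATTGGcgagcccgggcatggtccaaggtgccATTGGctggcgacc
The search ran over 300 bases, 250 before and 50 after the start site. TCACNCCAC was found in 1 of 7 member genes with a promoter entry, Hmgcs1, and in 1.24% of 32851 promoters. CCAAT was found in 6 of 7, Hmgcs1, Mvk, Pmvk, Mvd, Idi1 and Ggps1, and in 37.4% of all promoters. The 7 genes had 8 promoters, and a further promoter of Pmvk held 0 CCAAT. A gene counted if any of its promoters held the motif, while the share is over single promoters. TCACNTGA, an E-box form, was found in 0 of 7 and in 4.18% of all promoters. Fdps and Fdft1 had no entry.

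The call rule was that of the methods, read strictly. It asked for a GALP over control fold under 0.75 or over 1.5 in both pools, and on all 4 arrays for the same direction and a p-value under 0.01 from Agilent Feature Extraction, the image software, which compares the extracts of a single array. It called 3 of 18 member probes lower and 0 higher. Over all 41037 probes with a value on every array it called 54 lower (0.132%) and 24 higher (0.0585%). Without the p-value it called 6 member probes lower, the 3 added being those of Hmgcs1, of which 2 lacked signal, and 0 higher, beside 0.877% and 0.375% of all probes. With the p-value asked of 1 or more arrays in each pool it called the same 3, beside 0.405% of all probes. Among the 15 member probes with signal, 11 had a log2 ratio below 0 on all 4 arrays, beside 15.7% of all probes with signal, and 0 were above 0 on all 4. The 4 others were Mvk probe 1 and the 3 probes of Ggps1. The median log2 ratio of the 15 was -0.29 (-0.36 in the greater and -0.23 in the less weight loss pool), and the median of all 15734 probes with signal was -0.02.

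**Figure D1:**
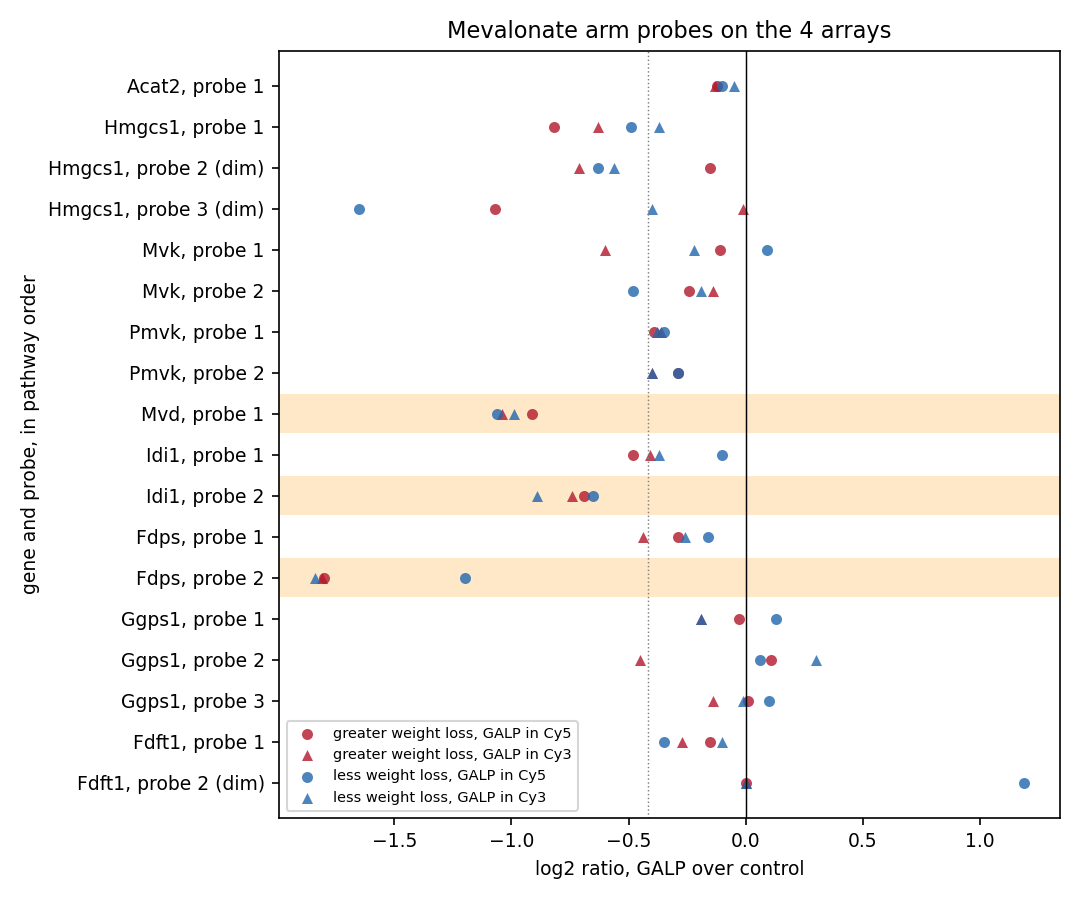
Log2 ratio of GALP over control (x axis) of each of the 18 member probes (y axis, in pathway order) on each of the 4 arrays, coloured by pool and shaped by dye. Shaded rows are the 3 probes called lower, the dotted line is the fold of 0.75, and probes marked dim lacked signal. The points of Mvd lie between -1.06 and -0.91, while those of Ggps1 lie on both sides of 0.

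Mvd, which makes isopentenyl diphosphate, had 1 probe (chr8:124957750-124957809, minus strand). Its processed signal in the GALP channel was 291 (GALP in Cy5) and 260 (GALP in Cy3) on the 2 arrays of the greater weight loss pool and 295 and 261 on those of the other pool, and that in the control channel of the same arrays was 548, 535, 614 and 518. Every GALP channel was below every control channel. The log2 ratio was -0.98 in the greater and -1.02 in the less weight loss pool, a mean of -1.0 ± 0.03 (SD, n = 2 pools). The software p-values lay between 3.72e-06 and 4.12e-05.

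Idi1, the isomerase that sets the balance of the 2 isoprenoid building blocks, had GALP signals of 157, 141, 161 and 128 at probe 2, in the order of the arrays given for Mvd. The control signals were 254, 236, 252 and 238, and the channels did not overlap. The log2 ratio of probe 2 was -0.74 ± 0.04 (SD, n = 2 pools). At Idi1 probe 1 (chr13:8891386-8891445, plus strand) the GALP signals of 5822, 5600, 6603 and 4667 overlapped the control signals of 8132, 7457, 7055 and 6042. Its log2 ratio was -0.34 ± 0.15 and was below 0 on all 4 arrays, but 0 of 4 software p-values were under 0.01. Both probes were lower in GALP, and they differed in size.

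Fdps, farnesyl diphosphate synthase, had the lowest ratio of the members with signal. At probe 2 the GALP signals were 73.0, 67.2, 102 and 67.7 and the control signals 255, 236, 235 and 243, which did not overlap. The array with the GALP extract of less weight loss in Cy5 stood above the other 3 GALP values, with a log2 ratio of -1.20 where the others lay between -1.84 and -1.80. The mean log2 ratio was -1.66 ± 0.20 (SD, n = 2 pools). At probe 1, the probe that spans exons, the GALP signals were 5178, 4343, 6162 and 5674 and the control signals 6350, 5910, 6893 and 6799, with overlap between the channels. Its log2 ratio was -0.29 ± 0.11, below 0 on all 4 arrays and not called. Probe 1 starts at base 686 of its transcript. Probe 2, though further 5′ in the gene, starts at base 2728 of its own, so these positions are counted on different transcripts. The probes of Fdps thus gave folds of 0.316 and 0.818, and which of them follows the main Fdps transcript was not tested.

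**Figure D2:**
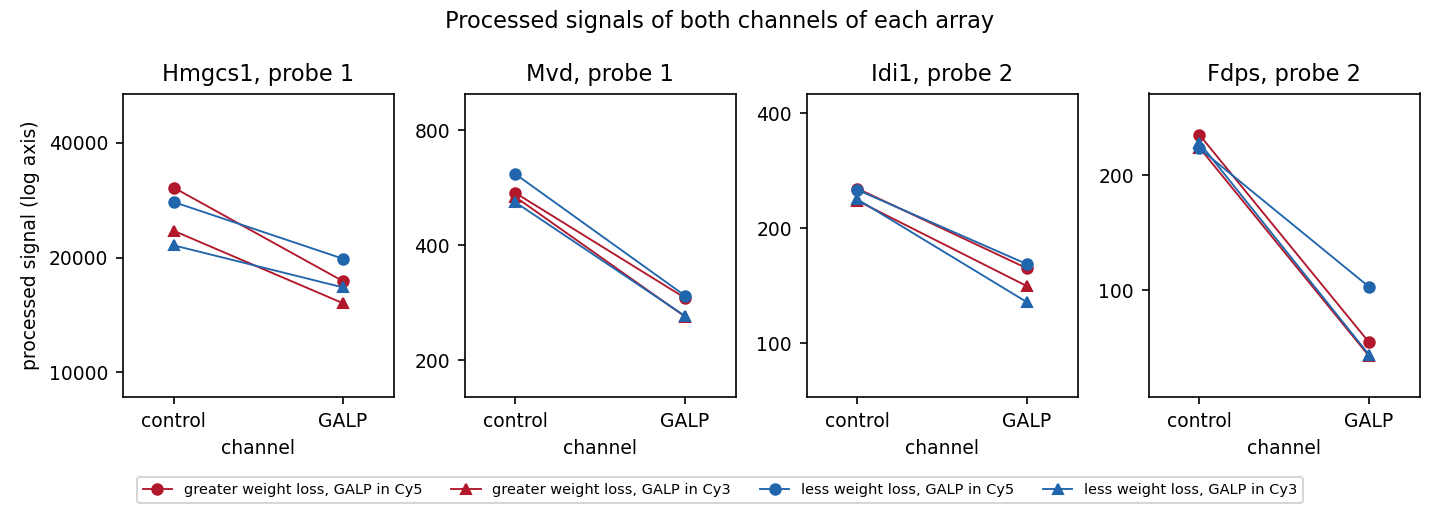
Processed signal (log axis, set separately for each panel but spanning the same range of folds) in the control and GALP channels of Hmgcs1 probe 1, Mvd, Idi1 probe 2 and Fdps probe 2. Each line joins the channels of 1 array, coloured by pool and shaped by dye, and in every panel the highest GALP value lies under the lowest control value.

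Hmgcs1, the cytosolic HMG-CoA synthase at the entry of the pathway, had 3 probes, of which 1 had signal. At that probe (chr13_random:114807-114866, minus strand) the GALP signals were 17353, 15188, 19867 and 16709 and the control signals 30532, 23527, 27984 and 21543. The channels did not overlap, though the highest GALP value and the lowest control value were close. The log2 ratio of the greater weight loss pool was -0.72 and that of the other pool -0.43, a mean of -0.58 ± 0.21 (SD, n = 2 pools). The software p-values were 1.75e-04 and 0.0029 in the first pool and 0.018 and 0.0762 in the second, so the probe was not called. On the 2 arrays of the pool with greater weight loss alone it passed the rule, and the count of member probes called was then 4. The other Hmgcs1 probes rose well above background in at most 1 channel of each kind. At probe 3, where this held for 0 of 4 GALP channels, no limit on the fold could be set.

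Pmvk, the second kinase, had ratios of nearly the same size on every array. At probe 1 (chr3:89272739-89272798, plus strand) the GALP signals were 2516, 2314, 2768 and 2480 and the control signals 3305, 2971, 3528 and 3231, which did not overlap. The log2 ratios were -0.39, -0.36, -0.35 and -0.38, a mean of -0.37 ± 0.01 (SD, n = 2 pools). Probe 2, which lies next to it, gave -0.35 ± 0.00 with overlapping channels. Neither probe reached the fold of 0.75, and 0 of 8 software p-values of Pmvk were under 0.01. With Hmgcs1 probe 1, Mvd, Idi1 probe 2 and Fdps probe 2, Pmvk probe 1 made 5 of 15 member probes whose highest GALP signal was under the lowest control signal, beside 2.49% of all probes with signal. Overlap of channels sets signals of different arrays side by side, while a ratio compares the channels of 1 array. All control signals come from 1 pool.

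Mvk, the first kinase, had a log2 ratio of -0.21 ± 0.21 at probe 1 and -0.26 ± 0.10 at probe 2. The array values of probe 1 ran from -0.60 to 0.09 and crossed 0. Acat2 had -0.10 ± 0.03, a fold of 0.931, at 1 probe whose accessions also name its paralogue Acat3, so the genes could not be told apart there. None of these 3 probes was called.

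Fdft1, squalene synthase, gave -0.22 ± 0.01 (SD, n = 2 pools) as log2 ratio at its probe with signal, with array values from -0.35 to -0.10 and GALP signals of 2716, 1998, 2272 and 2427 against control signals of 3022, 2412, 2904 and 2601. Ggps1, of the geranylgeranyl branch, had -0.07 ± 0.06, 0.00 ± 0.25 and -0.01 ± 0.08 at its 3 probes. Neither gene was called, and whether they differ from each other was not tested. The second Fdft1 probe was at background in every channel.

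The limma test of the 2 pool ratios against 0, with Benjamini-Hochberg adjustment over all 41037 probes, passed 0 member probes and 0 probes in all (0.0% in each direction). The adjusted p of Mvd, Idi1 probe 2, Fdps probe 2, both Pmvk probes and Fdft1 probe 1 was 0.374, the smallest over all probes. Probes outside the members shared that value. At an unadjusted p under 0.05, 7 of 18 member probes were lower and 0 higher, beside 6.6% lower and 4.99% higher over all probes. The 7 were Hmgcs1 probe 2, which lacked signal, both Pmvk probes, Mvd, Idi1 probe 2, Fdps probe 2 and Fdft1 probe 1. The test has 1 residual degree of freedom, so an adjusted p that misses the threshold here says little in either direction.

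The pools were set side by side to ask whether the mevalonate arm went with the degree of weight loss. They share the control and are 1 sample each, so the difference has no test. Of the 15 member probes with signal, 11 had the lower ratio in the greater weight loss pool and 4 in the other. The difference in log2 ratio (greater minus less) ran from -0.35 at Ggps1 probe 2 to 0.14 at Mvk probe 2. At 13 of 15 probes it was no larger in size than the larger dye difference of the 2 pools. A dye difference is that between the 2 dye orientations of 1 pool. The exceptions were Hmgcs1 probe 1, with -0.29, and Fdps probe 1, with -0.16. Some of the 13 exceeded the smaller dye difference. A dye difference keeps any dye bias of a probe, which the mean of a pool balances, so it does not measure the noise of the pool difference. Fdps probe 2 had -0.29, beside dye differences of 0.01 in the greater and 0.64 in the less weight loss pool. Mvd and Idi1 probe 2 each differed by 0.05.

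**Figure D3:**
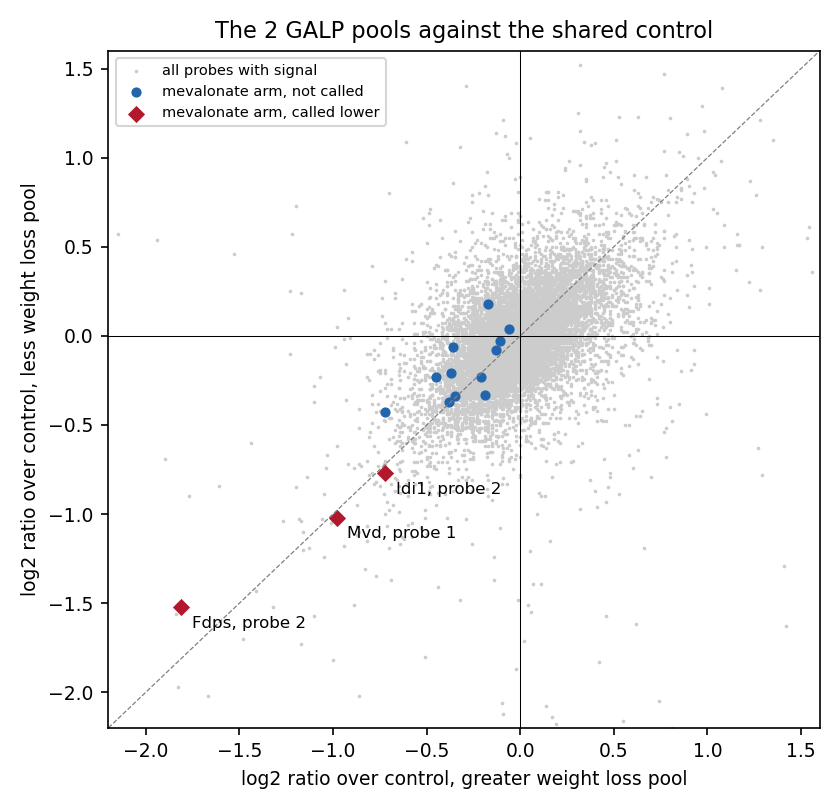
Log2 ratio over the shared control in the pool with greater weight loss (x axis) and in the pool with less (y axis), 1 point per probe with signal (grey, probes beyond the axes not drawn), with the member probes in colour and the line of equal ratios dashed. Mvd and Idi1 probe 2 lie close to that line, and Fdps probe 2 lies at -1.81 and -1.52.

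The next stretch of the pathway, from squalene to cholesterol, was measured by 22 probes of 11 genes, 21 of them with signal. Its median log2 ratio was -0.35, with 15 of 21 probes below 0 on all 4 arrays and 0 above 0 on all 4. The rule called 1 probe, that of Sc5d (lathosterol oxidase), with -0.80 ± 0.06 (SD, n = 2 pools), and like Fdps probe 2 it has no RefSeq accession. The RefSeq probe of Sc5d had -0.37 ± 0.09. Cyp51, the lanosterol demethylase, had -0.70 ± 0.12 at probe 1, -0.29 ± 0.02 at probe 2 and -0.54 ± 0.19 at probe 3, and at probe 1 the software p-value was under 0.01 on 3 of 4 arrays.

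No other gene of that stretch was called. Sqle, which oxidises squalene, had -0.53 ± 0.31, and Lss, which closes the rings, had -0.24 ± 0.01 at probe 1. Among the demethylating enzymes Msmo1 had -0.41 ± 0.10, Nsdhl had -0.35 ± 0.15 and Hsd17b7 had -0.42 ± 0.05, each at probe 1. The reductase Tm7sf2 had -0.24 ± 0.05 and Dhcr7 had -0.39 ± 0.13. The ratio of Ebp, a sterol isomerase, was near 0, at -0.05 ± 0.12.

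Regulators of the pathway had a median of -0.38 over 9 probes with signal, and 2 of them were called lower. Insig1 and Insig2 encode proteins that hold the SREBP escort protein Scap in the endoplasmic reticulum. Insig1 had -0.66 ± 0.14 at the called probe and -0.42 ± 0.11 at the other. Insig2 had -0.76 ± 0.17 at the called probe and -0.58 ± 0.10 at the other. Srebf1, whose SREBP-1 products mainly drive fatty acid synthesis, had -0.38 ± 0.18. Srebf2, which encodes SREBP-2, had -0.03 ± 0.01, 0.01 ± 0.33 and -0.11 ± 0.05 at its 3 probes with signal, and Scap had -0.06 ± 0.05.

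Genes that use isoprenoids for other products, namely coenzyme Q, dolichol and prenylated proteins, had a median log2 ratio of 0.01 over 11 probes with signal, with 0 below 0 on all 4 arrays and 0 called. The paralogues and ketone body enzymes had a median of -0.08 over 7 probes and 0 called. Acat1, the mitochondrial paralogue of Acat2, had 0.06 ± 0.11.

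**Figure D4:**
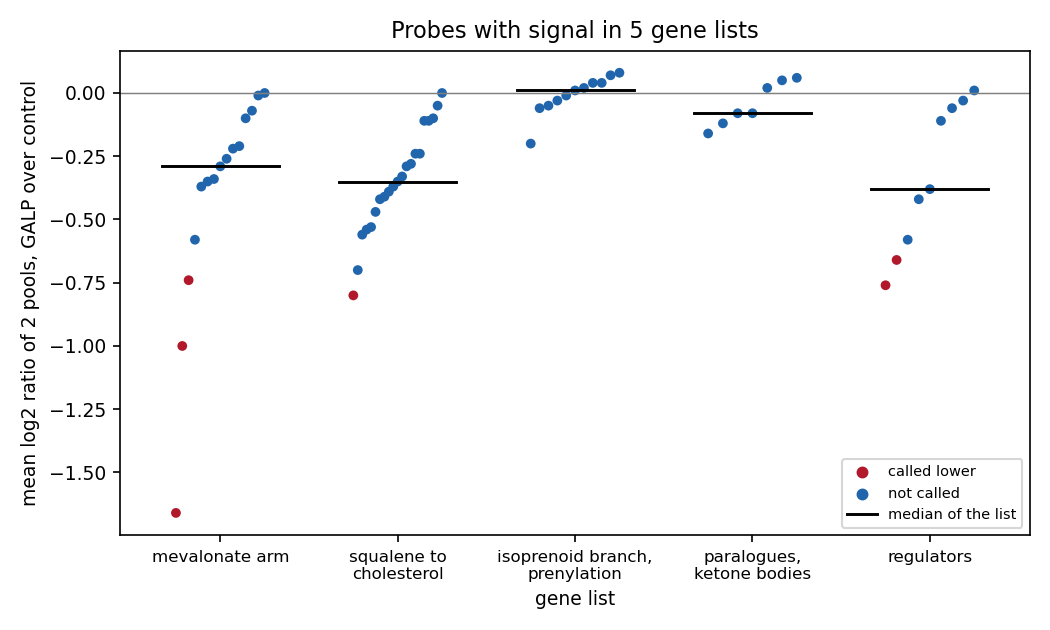
Mean log2 ratio over the 2 pools (y axis) of every probe with signal in the mevalonate arm and in 4 related lists (x axis), with called probes in red and the median of each list as a bar. The medians of the mevalonate arm (-0.29), of squalene to cholesterol (-0.35) and of the regulators (-0.38) lie below those of the isoprenoid users (0.01) and of the paralogues and ketone body enzymes (-0.08).

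Outside these lists, the 5 genes whose 4 array ratios lay nearest to those of Mvd, among 14461 probes well above background in every channel, were Jchain, Camk1d, Mup1, Nr4a1 and Slc30a10. Their root mean square distance from Mvd was 0.115, 0.126, 0.141, 0.143 and 0.167 on the log2 scale. All 5 were called lower, which follows largely from their choice by nearness to Mvd. Jchain had -1.03 ± 0.03 and Slc30a10 had -1.15 ± 0.13. Mup1 belongs to a family of near-identical genes, so its probe may read several of them.

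The liver identity of the extracts was checked on markers, by signals summed over the probes of a list with signal. The 5 hepatocyte genes on the array, Alb among them, all had signal, with sums of 137403 to 189378 in GALP and 136345 to 184358 in control channels. Of 4 pancreas genes 4 had signal, with sums of 2667 to 3951 in the pool with greater weight loss, 53634 to 57887 in the other pool and 33706 to 40528 in the control. Of 3 skeletal muscle genes 3 had signal, with sums of 1011 to 1375, 159 to 215 and 724 to 965 in the same order. Both sums lay on opposite sides of the control in the 2 pools. The stomach marker Gkn2 rose well above background in all 4 control but in 0 of 4 GALP channels. The other 3 stomach and intestine genes had no signal. Among bile duct markers Krt19 had -0.46 ± 0.51, Krt7 had -0.10 and Sox9 had -0.14 and -0.26 at their probes with signal, and Epcam had no signal. Their summed list had -0.24 in the greater and -0.15 in the less weight loss pool. Macrophage markers summed to 12657 to 16160 in GALP and 10896 to 12297 in control channels, with Marco called higher. The folds were 1.83 for Marco, 1.46 for Cd68 and 1.34 for Adgre1, but 0.999 for Clec4f and 0.956 for Vsig4. Stellate cell markers summed to 1512 to 1824 in GALP and 1116 to 1480 in control channels, with 0 called. Their log2 ratios were 0.66 for Col1a1, 0.29 for Pdgfrb, 0.12 ± 0.93 for Des and 0.07 and 0.05 for Lrat. Of the sinusoidal endothelium Lyve1 was called higher, while Stab2, Kdr and Clec4g had 0.13, -0.12 and -0.12 and the summed list -0.09 and -0.06 in the 2 pools. The part of other cells in the ratios of the mevalonate arm was not tested, and fewer cells of a type and less RNA per cell cannot be told apart in such extracts.

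The size of the ratios changed when the background correction and the dye normalization were replaced together. With normexp correction (offset 50) and loess in place of the processed signals, Mvd had -0.55 and was called, but Idi1 probe 2 had -0.26 and Fdps probe 2 had -0.46 and neither was called. The median over the 15 member probes with signal was then -0.25. Hmgcs1 probe 1 went from -0.58 to -0.68 and Fdps probe 1 from -0.29 to -0.26. In limma on those values 2 member probes passed, Mvd with an adjusted p of 0.0328 and Fdps probe 2 with 0.0479, among 53 lower and 42 higher probes in all.

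**Figure D5:**
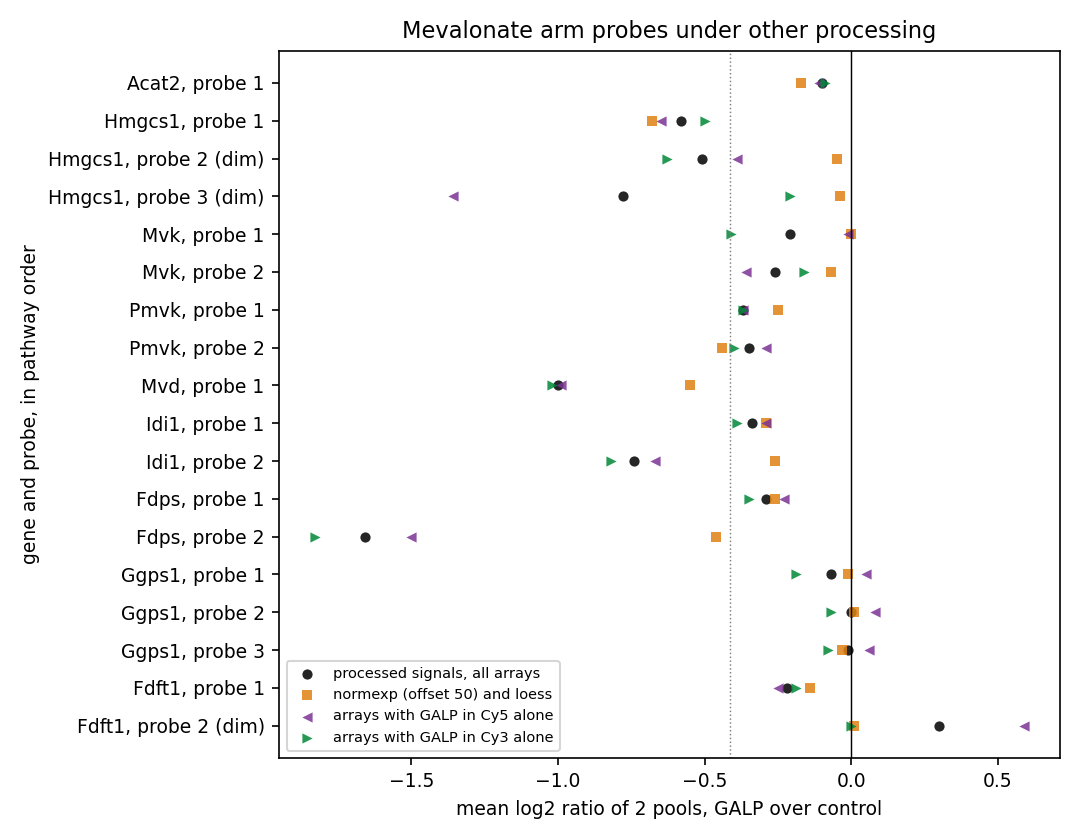
Mean log2 ratio over the 2 pools (x axis) of each member probe (y axis, in pathway order) from the processed signals of all arrays, after normexp and loess, and from the arrays of each dye orientation alone. Fdps probe 2 moves from -1.66 to -0.46 and Mvd from -1.0 to -0.55 after normexp and loess, while Hmgcs1 probe 1 stays between -0.68 and -0.50.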

How the data were processed

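The 4 dual-colour arrays were read with Feature Extraction 12.0.3.1 per the file headers (11.0.1.1 per the labels), with background subtraction and LOWESS for the dyes. The authors deposited the processed intensity of each channel, the log10 ratio of Cy5 over Cy3 and the p-value of that ratio. The log10 ratio is 0 where both signals were replaced by a background substitute. The deposited series table holds the log10 ratios turned to GALP over control and was used as an alternative. Its columns correlated with the scanner ratios at 0.9993 or above, over the spots where at most 1 signal was a background substitute. The log2 medians of the whole columns were -0.1315, -0.0444, 0.0163 and 0.0152, and their centring is not stated.

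All ratios were put as log2 of GALP over control. Outlier spots as marked by the software were dropped, and means were taken over the spots of a probe, then over the 2 arrays of a pool. The labels also put the control channels in weight loss groups, but the methods describe a single pool of control mice, so the control counts as 1 sample. Each array held 43379 spots, of which 40.5% to 46.7% per channel were well above background and 0 saturated. The small number of pools and arrays, and the single control, limit the precision.

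The call rule asked for folds over 1.5 or under 0.75 in both pools and a deposited p-value under 0.01 with the same direction on all 4 arrays, since the methods leave unstated how many arrays must pass. limma 3.58.1 in R 4.3.3 tested the 2 pool ratios against 0. Both procedures were run on simulated data, with changes larger in size than most member ratios. The simulations held no shared control, so they do not bear on its spread.

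Member genes, lists, markers and tests were chosen with earlier results of these data known. The genes named are every member at each probe, the called genes of the other pathway lists, the squalene-to-cholesterol genes with signal, and the 5 genes nearest to Mvd. The values of some listed genes are not reported here. RefSeq accessions named the member for 16 of 18 member probes, and 1 probe named a second gene. Alternatives were normexp (offset 50) with loess, centring, the series table, no outlier filter, single dye orientations, leaving out a pool, other p rules, folds, filters and probe choices, and for limma an intensity trend and the 4 arrays with the pool as a random block. Centring on probes with signal and the restriction to RefSeq probes were added after the data were seen. Python 3.11.15 with numpy 2.4.6, pandas 2.3.3 and matplotlib 3.10.9 was used.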

Additional observations from a re-analysis of the deposited data

Results flagged for a closer look

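Probes and marker lists were singled out where both arrays of a GALP pool lay on 1 side of 0 and both arrays of the other pool on the opposite side. No member probe did so. None of these differences was tested, since each pool is 1 sample. The log2 ratio of summed pancreas markers was -3.51 in the greater and 0.68 in the less weight loss pool, a difference of -4.19. Summed skeletal muscle markers had 0.48 and -2.18, a difference of 2.66. Adipoq, the adipose marker with signal, had 0.38 and -0.26, a difference of 0.64. Summed hepatocyte markers had 0.02 and -0.18, a difference of 0.20. Pdss1 probe 1, of coenzyme Q synthesis, differed by 0.25 and Bdh1 probe 1, of ketone body metabolism, by -0.17.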

How the results depend on the processing

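The 3 member probes called lower, and the 3 probes of other pathway genes, are counts from 2 pools against 1 control sample, and no setting gives the spread of the control. The member count was 1 after normexp and loess (Mvd) and 6 without a p-value, which added the 3 Hmgcs1 probes. It was 3 without the pool with greater weight loss and 4 without the pool with less, and it lay within 1.5 times of 3 under the other alternatives, with 2 among probes with a RefSeq accession. The median of the member probes lay between -0.37 and -0.23 under all alternatives, and with a pool left out it was -0.36 and -0.23. The other pathway count was 1 after normexp and loess (Sc5d), 5 without a p-value, with the p-value asked of 1 or more arrays in each pool and on the arrays with GALP in Cy3 alone, and 3 and 7 with a pool left out, the 7 without the pool with less weight loss including Cyp51, Nsdhl and Sqle.

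Over all probes, 24 higher and 54 lower probes became 9 and 26 after normexp and loess, 154 and 360 without a p-value, 53 and 166 with the p-value asked of 1 or more arrays in each pool, 133 and 139 with GALP in Cy5 alone, and 140 and 156 with GALP in Cy3 alone. With a pool left out, 96 to 120 were higher and 149 to 162 lower. Centring on all probes changes nothing, as their median was 0 on every array, and centring on probes with signal moved the arrays by at most 0.071.

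limma passed 0 probes, and 1 among probes with signal, 95 after normexp and loess, and 193 with the 4 arrays and the pool as a random block. That fit counts both arrays of a pool, and its consensus correlation of residuals within a pool was -0.48. A value below 0 gives smaller standard errors than 4 independent arrays would, though the 2 arrays of a pool carry the same extracts. The adjusted p-values of that fit are therefore too small for n = 2 pools. Under that block the adjusted p was 0.0203 for Mvd, 0.0355 for Idi1 probe 2, 0.0185 and 0.0414 for the Pmvk probes and 0.0504 for Fdps probe 2. The adjusted p of Mvd was 0.128 among probes with signal.

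Of 162 values of single member probes under alternatives, 143 kept their direction and side of the rule and 3 became 0.00 and were not called. The 9 of Ggps1 probe 2, which was at 0.00 and has no direction, were not called and ranged from -0.17 to 0.18. Idi1 probe 2 (-0.26) and Fdps probe 2 (-0.46) were no longer called after normexp and loess, Hmgcs1 probe 1 (-0.72) was called without the pool with less weight loss, and Ggps1, which was not called, turned to 0.05 at probe 1 and 0.06 at probe 3 with GALP in Cy5 alone, and at probe 3 to 0.04 without the pool with greater weight loss (-0.06 without the other pool) and to 0.01 after centring on probes with signal. The causes were not tested. Each ratio pairs the GALP and control channels of 1 array. Mice could not be paired, because their RNA was pooled and each pool is 1 sample. At this depth, probes at background (2 of Hmgcs1 and 1 of Fdft1) allow no statement on a change.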
